A study of Mus musculus with 40 samples.

Results

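The Serpin protease inhibitor family was followed in left ventricles of FVB/NJ mice after pressure overload. Members were taken by name, as every symbol in the deposited table made of Serpin, a letter from a to i and a digit, and were kept where the value was at least 10 in at least 5 of 40 libraries. Of 42 serpin entries in the table, 24 were kept among 16395 genes that passed the same minimum, and 18 were not. Just inside the minimum, Serpina1e reached 10 in 10 libraries and Serpina3g in 21. Just outside it, Serpina3m and a second entry of Serpina3h reached 10 in 4 libraries each, and Serpina3k and Serpinf2 in 3 each. The rule on names used no measured difference, but the family was chosen with earlier results of these data known. The minimum can also favour genes that are high in some conditions. Serpinb1c reached 10 in all 20 libraries of TAC mice and in 7 of 20 libraries of sham mice.

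Libraries came from 4 conditions of 10 mice each, ONOFF TAC, ONOFF Sham, Con TAC and Con Sham, with 5 males (M) and 5 females (F) in each. ONOFF mice carried dnOGAh, a temporary, cardiac-specific dominant negative for OGA, which takes the sugar O-GlcNAc off proteins. The labels name neither the promoter nor the line. Con mice were the controls and were given the same diet as ONOFF mice, 2 weeks of doxycycline food followed by 2 weeks of standard chow. Surgery followed, either sham or transverse aortic constriction (TAC), which narrows the aorta and makes the ventricle pump against high pressure, and tissue was taken 9 weeks later, with no age given. The comparisons asked how TAC changed the ventricle in each genotype and whether a past, stopped induction altered it after TAC or after sham.

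Serpins fold into a strained shape with an exposed loop that acts as bait. A protease that cuts the loop is dragged across the molecule and trapped in a dead covalent complex, so that each inhibitor molecule is used once. Secreted serpins restrain clotting, clot lysis and complement, clade B serpins work mostly inside cells against proteases of granules and lysosomes, and a few members have lost inhibition and serve as chaperones or signals. In the heart, the best known members bear on fibrosis through plasminogen activation, thrombin and the folding of collagen.

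The following 3 stretches lie upstream of genes of the Serpina3 cluster, shown because the values of these genes stood high together in single libraries. Each is the 250 bases before a gene's start in RefSeq's GRCm38.p6 annotation, 5′ to 3′, and capitals mark the only match to TTCNNNGAA, the gamma-activated site (GAS).
Serpina3f (chr12:104214294-104214543, + strand): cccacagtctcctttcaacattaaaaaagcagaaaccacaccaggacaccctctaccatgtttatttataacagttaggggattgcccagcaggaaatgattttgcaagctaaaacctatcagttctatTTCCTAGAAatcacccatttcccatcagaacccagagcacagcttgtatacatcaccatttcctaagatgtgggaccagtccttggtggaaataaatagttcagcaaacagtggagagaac
Serpina3g (chr12:104235897-104236146, + strand): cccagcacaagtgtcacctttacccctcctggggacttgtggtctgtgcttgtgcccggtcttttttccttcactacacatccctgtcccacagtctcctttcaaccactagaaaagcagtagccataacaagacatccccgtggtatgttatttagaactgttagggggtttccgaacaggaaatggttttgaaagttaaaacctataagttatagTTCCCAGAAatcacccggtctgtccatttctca
Serpina3i (chr12:104262872-104263121, + strand): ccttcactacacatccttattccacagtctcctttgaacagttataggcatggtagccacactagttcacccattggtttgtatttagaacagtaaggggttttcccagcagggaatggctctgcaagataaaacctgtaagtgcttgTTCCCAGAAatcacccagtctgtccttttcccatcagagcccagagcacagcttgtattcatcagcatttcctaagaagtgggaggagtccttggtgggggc
The match began 121 bases before the start in Serpina3f, 33 in Serpina3g and 102 in Serpina3i. It was followed by the same bases, atcaccc, in each of the 3 stretches, which belong to related genes and are not independent.

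Library totals of the normalized values were 35176220 at the lowest and 47653987 at the highest, and depth before the authors' normalization is unknown. In 3 Con Sham libraries (F replicates 3 and 5, M replicate 4), between 5782 and 6920 genes had a value of 0, while the count was 2635 to 4594 in each of the other 37 libraries. Xist, transcribed from the inactive X of female cells, was 6.72 in Con TAC F replicate 3 and 51.7 in Con TAC F replicate 2, against 1123 to 3274 in the other 18 libraries labelled F and at most 87.7 in those labelled M. Some of the results that rest on these 5 libraries, but not all, are given with and without them. Oga, the gene of the enzyme that the construct opposes, was 0.83 higher on the log2 scale in ONOFF than in Con mice after sham (limma, adjusted p = 0.000295) and 0.34 higher after TAC (limma, adjusted p = 0.0645). Nppa, the atrial natriuretic peptide gene that rises in overloaded ventricles, was 3.71 higher after TAC in ONOFF mice (limma, adjusted p = 1.66e-10) and 2.29 higher in Con mice (limma, adjusted p = 1.33e-05). The p-values measure only the spread between these libraries.

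After TAC, 5 of the 24 serpins rose in ONOFF mice and none fell. Among them were Serpinb1c, Serpinf1, Serpine2 and Serpinb6a. Among all genes tested, 21.2% passed in either direction, 10.7% higher and 10.6% lower. The serpins' share in either direction, 20.8%, was close to that of all genes, with every call upward. In Con mice, 2 serpins rose after TAC (8.33% of members, against 3.17% of all genes higher, 2.62% lower and 5.78% in either direction) and none fell: Serpinb1c and Serpinf1. Between genotypes after TAC, 5 serpins were higher in ONOFF than in Con mice (20.8% of members, against 4.14% of all genes higher, 3.82% lower and 7.97% in either direction) and none was lower: Serpinf1, Serpine2, Serpinb6a, Serpina3n and Serping1. Calls were made with limma on log2(value + 1) at a Benjamini-Hochberg adjusted p below 0.05 over all genes.

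Between genotypes after sham, 0 of 24 serpins passed by limma, against 0.116% of all genes higher, 0.0244% lower and 0.14% in either direction, with 2 serpins at an unadjusted p below 0.05 (Serpina3c and Serpinb6a). How many of all genes reached that unadjusted level was not counted, so no excess can be read from the 2. The test of whether the TAC effect differed between genotypes called 1 serpin, Serpine2 (4.17% of members, against 0.238% of all genes higher, 0.207% lower and 0.445% in either direction). The median log2 change over the 24 members was 0.30 for TAC in ONOFF mice, 0.15 for TAC in Con mice and 0.31 for ONOFF minus Con after TAC, against 0.01, 0.02 and -0.0007 over all genes. After sham it was 0.04, against 0.01 over all genes. The summed value of the 24 kept serpins ran from 32309 to 52236 (median 37367) in ONOFF TAC libraries, 24507 to 34539 (median 28240) in ONOFF Sham, 25404 to 37526 (median 29438) in Con TAC and 24010 to 30213 (median 25756) in Con Sham. ONOFF minus Con after TAC shares its libraries with both comparisons of TAC with sham, so the values are set side by side and are not independent.

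**Figure D1:**
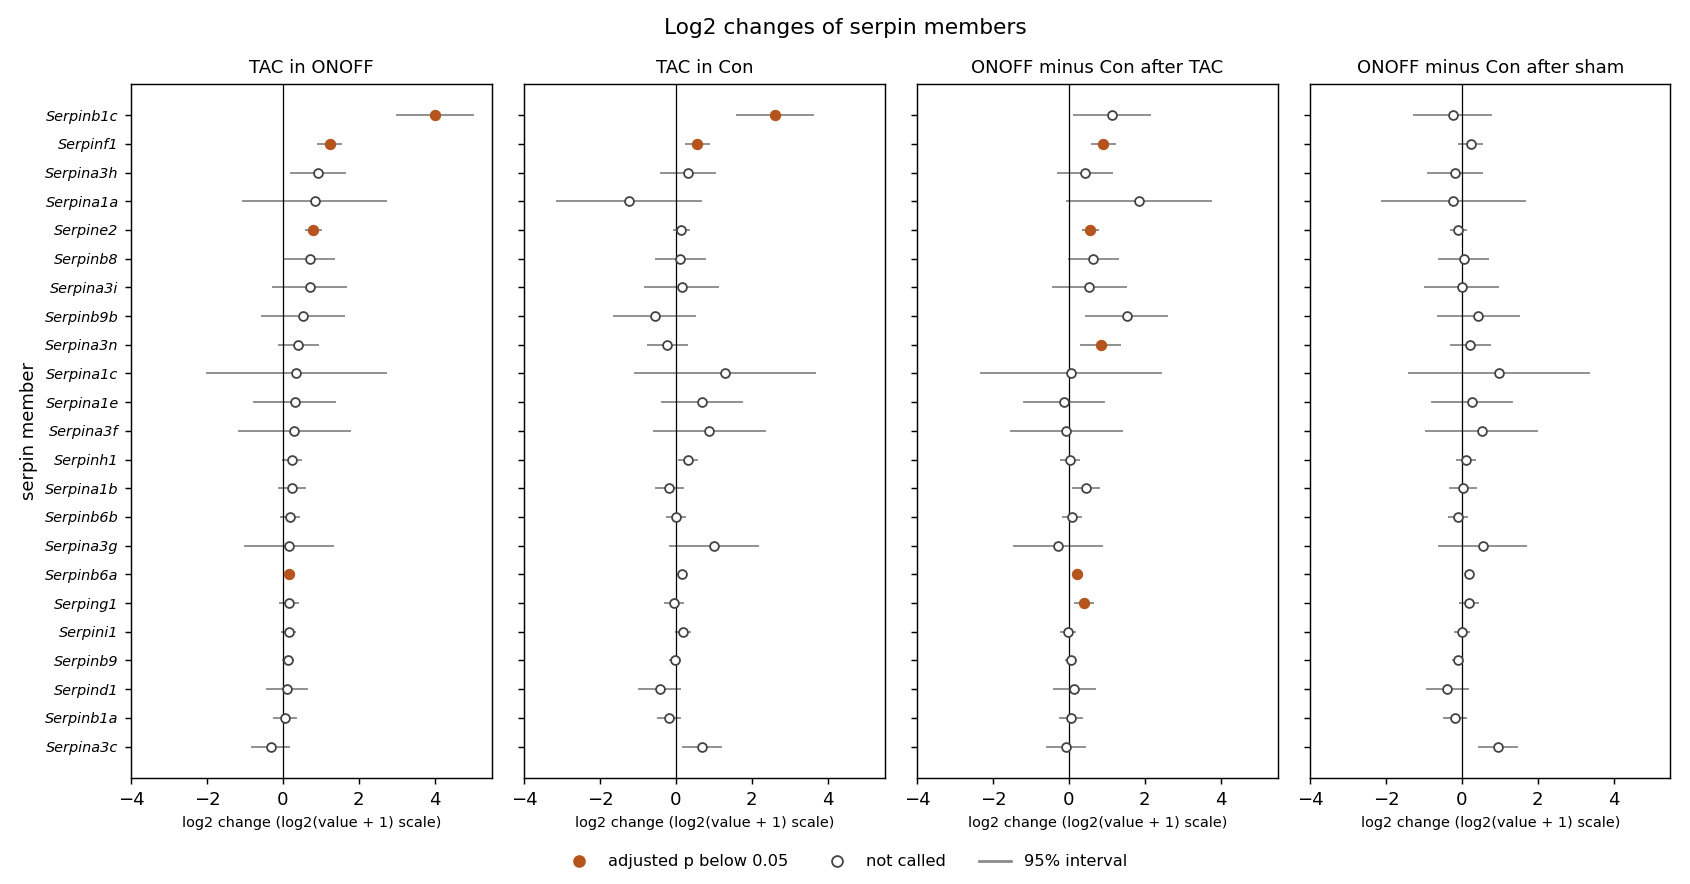
Log2 change (x axis, with 95% confidence interval from limma) of kept serpins (rows) in 4 comparisons (panels); filled points passed an adjusted p of 0.05. Serpinb1c lies farthest to the right for TAC, at 4.00 in ONOFF mice and 2.62 in Con mice, and no point is filled after sham.

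Serpine2 (ENSMUSG00000026249) encodes protease nexin 1, which inhibits thrombin, urokinase and plasmin and is taken up through the receptor Lrp1. Serpine2 ran from 1180 to 3296 (median 1844) in ONOFF TAC libraries, 801.1 to 1771 (median 1124) in ONOFF Sham, 785.8 to 1896 (median 1339) in Con TAC and 915.3 to 1600 (median 1252) in Con Sham. Ranges of the 4 conditions overlapped when the sexes were pooled. TAC raised it 1.74-fold in ONOFF mice (log2 0.80 ± 0.11, SE; limma, adjusted p = 9.49e-07), in 10 of 10 libraries. In Con mice the change was 0.14 (95% interval -0.09 to 0.37; limma, adjusted p = 0.533). The difference of these changes, 0.66 ± 0.16, passed (limma, adjusted p = 0.0474). That call lay near the threshold: it was lost without any one of 27 of the 40 libraries (adjusted p up to 0.0861, without ONOFF TAC F replicate 4) and without the 3 Con Sham libraries with many zeros (0.0513), while the value stayed between 0.57 and 0.73 with any single library left out. The libraries without which it held were ONOFF TAC F replicates 1 to 3 and M replicates 1 and 2, ONOFF Sham F replicate 3 and M replicate 4, Con TAC F replicate 2 and M replicates 2 and 4, and Con Sham F replicate 3 and M replicates 1 and 4. After TAC, ONOFF mice were 1.48-fold above Con mice (log2 0.56 ± 0.11; limma, adjusted p = 0.00102), in 9 of 10 libraries, while after sham the difference was -0.10 (limma, adjusted p = 0.889).

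The sexes stood apart in Serpine2. Male values were 1700 to 3296 and female values 1180 to 2637 in ONOFF TAC mice, and 1240 to 1771 against 801.1 to 1008 in ONOFF Sham mice. In Con TAC mice males had 1539 to 1896 and females 785.8 to 1138, and in Con Sham mice males had 1326 to 1600 and females 915.3 to 1178. Males and females did not overlap in 3 conditions and overlapped in ONOFF TAC. How many of all genes separate so by sex was not counted. The TAC effect in ONOFF mice was 0.83 in males (limma, adjusted p = 0.000281) and 0.77 in females (limma, adjusted p = 0.00115), and the difference between the sexes was 0.06 (limma, adjusted p = 0.965). In Con mice it was 0.25 in males (limma, adjusted p = 0.571) and 0.03 in females (limma, adjusted p = 0.962).

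**Figure D2:**
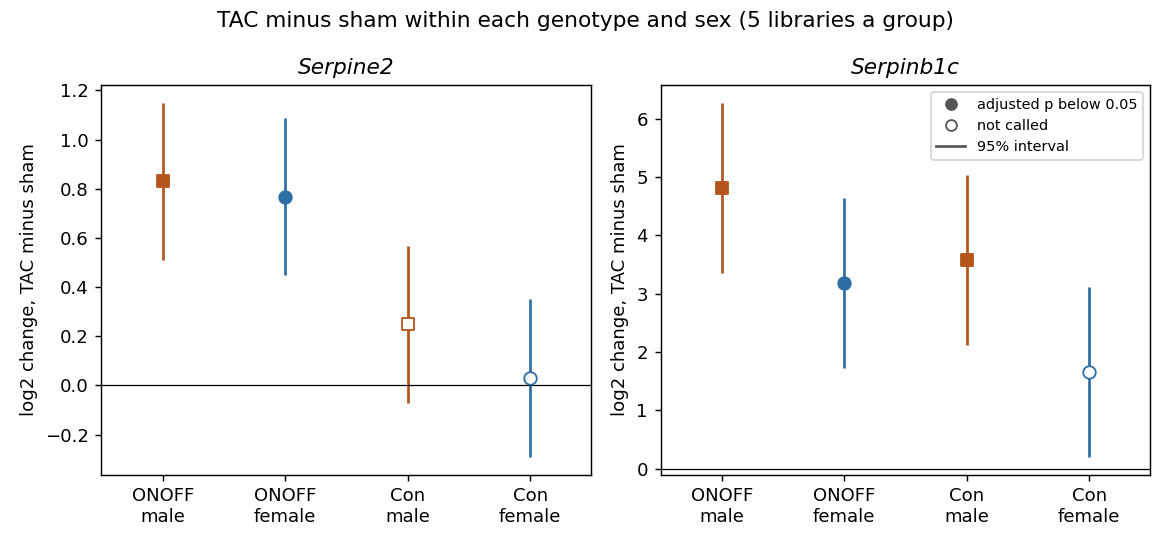
Log2 change after TAC (y axis, with 95% confidence interval) of Serpine2 and Serpinb1c in ONOFF and Con mice, males and females apart. The change of Serpine2 was 0.83 and 0.77 in ONOFF males and females, against 0.25 and 0.03 in Con males and females, and that of Serpinb1c was 4.82 and 3.19, against 3.57 and 1.66.

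Beside Serpine2, genes of the plasminogen and thrombin axis, a list of proteases, receptors and cofactors, were counted. Of 15 tested, 6 rose and 2 fell after TAC in ONOFF mice, with a median of 0.31 against 0.01 over all genes, and 2 rose and 0 fell in Con mice. For this list and those below, the shares over all genes were 10.7% higher and 10.6% lower for TAC in ONOFF mice. For TAC in Con mice they were 3.17% and 2.62%, and for ONOFF minus Con after TAC 4.14% and 3.82%. F2rl1, a receptor that proteases switch on by cutting it, rose by 1.43 in ONOFF mice (limma, adjusted p = 6.66e-06) and by 0.87 in Con mice (limma, adjusted p = 0.0145). F2r, the thrombin receptor, rose by 0.64 in ONOFF mice (limma, adjusted p = 9.45e-05). Lrp1, the endocytic receptor for complexes of proteases with Serpine2, rose by 0.53 in ONOFF mice (limma, adjusted p = 0.000108) and was 0.56 higher in ONOFF than Con mice after TAC (limma, adjusted p = 0.000313). Other changes in this list are counted and not named.

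Serpinf1 (ENSMUSG00000000753) encodes pigment epithelium-derived factor, a secreted serpin that inhibits no protease, binds collagen and restrains new vessel growth. Values ran from 3124 to 6109 (median 4153) in ONOFF TAC libraries, 1365 to 2443 (median 1790) in ONOFF Sham, 1435 to 3742 (median 2201) in Con TAC and 1002 to 2371 (median 1618) in Con Sham. Every ONOFF TAC library lay above every ONOFF Sham library, and no other of the 24 serpins was so separated in that comparison; 2.89% of all genes tested were. TAC raised it 2.35-fold in ONOFF mice (log2 1.23 ± 0.16; limma, adjusted p = 3.73e-07). In Con mice it rose 1.47-fold (log2 0.56 ± 0.16; limma, adjusted p = 0.0332), in 9 of 10 libraries. The Con call was lost without the 2 Con TAC F libraries with little Xist (0.40, limma, adjusted p = 0.194), without the 3 Con Sham libraries with many zeros (0.55, limma, adjusted p = 0.0776) and without any one of 9 libraries (up to 0.0838, without Con TAC F replicate 2). These were Con TAC F replicates 2 and 3 and M replicates 1, 2 and 4, and Con Sham F replicates 3 and 4 and M replicates 1 and 3.

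After TAC, Serpinf1 was 1.87-fold higher in ONOFF than in Con mice (log2 0.90 ± 0.16; limma, adjusted p = 0.000357), in 10 of 10 libraries, and 1.06 without the 2 Con TAC F libraries (limma, adjusted p = 5.65e-05). It was 0.91 in males (limma, adjusted p = 0.0176) and 0.90 in females (limma, adjusted p = 0.079). The difference between the TAC effects of the genotypes was 0.67 and did not pass (limma, adjusted p = 0.199). TAC raised it by 1.38 in ONOFF males (limma, adjusted p = 5.01e-05) and by 1.08 in ONOFF females (limma, adjusted p = 0.00168).

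Serpinh1, the collagen chaperone of the endoplasmic reticulum and likewise no protease inhibitor, ran from 5826 to 13995 (median 9949) in ONOFF TAC libraries, 5198 to 12935 (median 8387) in ONOFF Sham, 7370 to 12640 (median 9338) in Con TAC and 6369 to 9290 (median 7520.3) in Con Sham. All 4 ranges overlapped. Its TAC change was 0.25 ± 0.13 in ONOFF mice (limma, adjusted p = 0.197) and 0.33 ± 0.13 in Con mice (limma, adjusted p = 0.139), where 10 of 10 Con TAC libraries lay above the Con Sham mean of their sex. Of 16 other collagen chaperones and hydroxylases, 6 rose and 2 fell after TAC in ONOFF mice (median 0.22), and 1 rose and 1 fell in Con mice (median 0.09). P3h2, which hydroxylates collagen prolines, rose by 1.39 in ONOFF mice (limma, adjusted p = 5.91e-09) and P4ha1, a subunit of the main prolyl hydroxylase, by 0.65 (limma, adjusted p = 5.39e-05). P3h4, a partner of collagen lysyl hydroxylation, fell by 0.68 in ONOFF mice (limma, adjusted p = 0.000172) and by 0.69 in Con mice (limma, adjusted p = 0.000883).

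Markers of fibroblasts and other cells were counted in the same comparisons. Of 8 markers of activated fibroblasts, 4 were called higher and 0 lower in TAC in ONOFF mice, TAC in Con mice and ONOFF minus Con after TAC alike, and none after sham. Serpinf1 was called in each of these 3 comparisons, and Serpine2 in all but TAC in Con mice. In the test of whether the TAC effect differed between genotypes, which called Serpine2, 2 of these 8 markers were higher and 0 lower. Their median there was 1.25, against -0.01 over all genes, of which 0.238% were called higher. The summed value of the 8 markers ran from 17700 to 40780 (median 31270) in ONOFF TAC libraries, 9459 to 14330 (median 12020) in ONOFF Sham, 9603 to 23100 (median 16420) in Con TAC and 10350 to 17300 (median 12110) in Con Sham. ONOFF TAC libraries all lay above ONOFF Sham libraries in that sum. Of 8 general fibroblast markers, 4 were higher and 1 lower after TAC in ONOFF mice, with sums of 132000 to 172100 in ONOFF TAC and 101400 to 162400 in ONOFF Sham libraries. Of 8 cardiomyocyte markers, 1 was higher and 5 lower, with sums of 1785000 to 2545000 in ONOFF TAC and 2390000 to 3579000 in ONOFF Sham libraries. Between genotypes after TAC, 3 general fibroblast markers were higher and 0 lower in ONOFF than in Con mice, where the sums were 106300 to 176600 in Con TAC libraries. In that comparison 0 cardiomyocyte markers were higher and 4 lower, with sums of 2071000 to 4190000 in Con TAC libraries. After TAC in Con mice, 2 general fibroblast markers were higher and 1 lower, and 1 cardiomyocyte marker was higher and 1 lower. Of the other marker lists, macrophage (1 of 8 higher), smooth muscle and pericyte (1 of 7 higher), mast cell (1 of 6 higher, 2 lower) and Schwann cell (2 of 6 lower) had calls for TAC in ONOFF mice, and endothelium, mesothelium, adipocyte, hepatocyte, neutrophil, platelet and T and NK cell lists had none. For ONOFF minus Con after TAC, only the platelet (2 of 5 lower) and smooth muscle and pericyte (1 of 7 lower) lists among these had calls. For TAC in Con mice, only the Schwann cell list (2 of 6 lower) did. In bulk tissue, fewer cells of a type and less RNA per cell cannot be told apart, and the part of cell makeup in the serpin changes was not tested.

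Serpinb1c (ENSMUSG00000079049) is one of the mouse copies of the gene for leukocyte elastase inhibitor, an intracellular serpin against neutrophil proteases. Serpinb1c ran from 17.6 to 285.2 (median 125.0) in ONOFF TAC libraries, 2.71 to 24.9 (median 5.41) in ONOFF Sham, 19.0 to 118.7 (median 66.7) in Con TAC and 0 to 26.9 (median 10.5) in Con Sham, where 2 libraries were listed at 0. Both pairs of TAC and sham ranges overlapped at their edges, and the lowest ONOFF TAC library was female. TAC raised it 16.03-fold in ONOFF mice (log2 4.00 ± 0.51; limma, adjusted p = 1.53e-07) and 6.13-fold in Con mice (log2 2.62 ± 0.51; limma, adjusted p = 0.00105), in 10 of 10 libraries each. Without the 5 Con libraries that stand apart, the Con change was 2.696 (limma, adjusted p = 0.00264). With any single library left out it was 2.185 to 2.855 (limma, adjusted p up to 0.00296, without Con TAC F replicate 2). These are changes of log2(value + 1), and for a gene near 0 in sham mice their size depends on the value of 1 added. With 10 added, they were 2.96 in ONOFF mice (limma, adjusted p = 5.82e-10) and 1.64 in Con mice (limma, adjusted p = 0.000232).

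Between genotypes after TAC, Serpinb1c was 1.14 higher in ONOFF mice (95% interval 0.11 to 2.17), which did not pass (limma, adjusted p = 0.184). It passed with 10 added in place of 1 (limma, adjusted p = 0.0176), with library weights (limma, adjusted p = 0.0217) and with only the groups compared (limma, adjusted p = 0.044). In 10 of 13 alternatives it did not pass (limma, adjusted p up to 0.36). Nor did it pass with any single library left out (limma, adjusted p from 0.0786 to 0.285). The difference of the TAC effects was 1.39 (limma, adjusted p = 0.472). In ONOFF TAC mice, males had 119.9 to 285.2 (median 236.5) and females 17.6 to 129.1 (median 120.2), and in Con TAC mice males had 58.6 to 118.7 (median 89.9) and females 19.0 to 88.1 (median 25.0). The TAC effect was 4.82 in ONOFF males (limma, adjusted p = 8.91e-06) and 3.19 in ONOFF females (limma, adjusted p = 0.00281). It was 3.57 in Con males (limma, adjusted p = 0.00681) and 1.66 in Con females (limma, adjusted p = 0.292). The effect in Con females was not computed without the 2 Con TAC F libraries with little Xist. The differences between the sexes, 1.63 in ONOFF and 1.92 in Con mice, did not pass (limma, adjusted p = 0.816 and 1.00). Of the 31-base words in Serpinb1c transcripts, 7.54% also occur in transcripts of Serpinb1a, so a part of the reads could be assigned to either.

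Serpinb1a, the best studied mouse copy of that inhibitor, passed in none of the 5 comparisons that average the sexes. Values of Serpinb1a ran from 90.9 to 221.6 (median 146.5) in ONOFF TAC libraries, 99.4 to 182.6 (median 145.3) in ONOFF Sham, 90.1 to 295.5 (median 147.7) in Con TAC and 126.8 to 227.3 (median 153.1) in Con Sham. Its log2 change after TAC was 0.05 (95% interval -0.27 to 0.37) in ONOFF mice and -0.17 (-0.49 to 0.14) in Con mice. The neutrophil markers tested, 3 of a list of 8, gave no call in the 5 comparisons that average the sexes.

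Serpinb6a (ENSMUSG00000060147), an intracellular inhibitor of cathepsin G and related proteases, changed by small amounts. Its value ran from 4224 to 6031 (median 4843) in ONOFF TAC libraries, 3799 to 4877 (median 4288) in ONOFF Sham, 3679 to 4979 (median 4219) in Con TAC and 3626 to 4160 (median 3756) in Con Sham. The median was lowest in Con Sham, and the ranges overlapped in each of the 4 comparisons of surgery or genotype. It rose 1.12-fold after TAC in ONOFF mice (log2 0.16 ± 0.05; limma, adjusted p = 0.0248) and was 1.15-fold higher in ONOFF than Con mice after TAC (log2 0.21 ± 0.05; limma, adjusted p = 0.0125), in 8 of 10 libraries each. In Con mice the change after TAC was 1.11-fold in 9 of 10 libraries (log2 0.15 ± 0.05), and did not pass (limma, adjusted p = 0.1), while with library totals made equal it did (0.19; limma, adjusted p = 0.0402). The difference between the TAC effects of the genotypes was 0.02 (95% interval -0.14 to 0.17; limma, adjusted p = 0.964). Without ONOFF TAC M replicates 3 and 5, the rise in ONOFF mice fell short (limma, adjusted p = 0.0968) and so did the difference from Con mice (limma, adjusted p = 0.0593), which was also lost with only the groups compared (limma, adjusted p = 0.0587). The rise was further lost without any one of ONOFF TAC F replicate 4, F replicate 5 and M replicate 5 and ONOFF Sham F replicate 2 and M replicate 5 (adjusted p up to 0.0668). In males the difference after TAC was 0.34 (limma, adjusted p = 0.00669), and in females 0.07 (limma, adjusted p = 0.793), with no call for the difference between the sexes. After sham the genotypes differed by 0.19 (limma, adjusted p = 0.192), with 10 of 10 ONOFF Sham libraries above the Con Sham mean of their sex.

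The remaining clade B members passed in none of the 5 comparisons that average the sexes. Serpinb9, the inhibitor that protects cells from granzyme B, ran from 658.1 to 1040 (median 786.7) in ONOFF TAC, 603.0 to 872.5 (median 738.7) in ONOFF Sham, 618.4 to 1071 (median 773.9) in Con TAC and 612.0 to 1022 (median 796.1) in Con Sham libraries. Serpinb6b, a relative of Serpinb6a, had medians of 1974, 1726, 2031 and 1818 in the same order. Serpinb8, known in human cells as an inhibitor of furin, had medians of 74.0, 46.1, 44.2 and 50.02, and its TAC change in ONOFF mice was 0.71 ± 0.33 (limma, adjusted p = 0.133). Serpinb9b, a mouse relative of Serpinb9, was 5.84 to 32.8 (median 15.7) in ONOFF TAC and 0 to 16.5 (median 5.62) in Con TAC libraries, a difference of 1.52 ± 0.54 that did not pass (limma, adjusted p = 0.0783), in 10 of 10 libraries.

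Proteases of granules and lysosomes were counted as well. Of 6 granule and inflammatory serine proteases tested, 1 rose and 2 fell after TAC in ONOFF mice, and 0 passed in Con mice. Mcpt4, a mast cell chymase, fell by 2.47 (limma, adjusted p = 0.000233) and Cma1, another chymase, by 1.21 (limma, adjusted p = 0.0167), both also on the mast cell marker list, while Cela1, an elastase, rose by 0.89 (limma, adjusted p = 0.011). Sums over the 9 listed genes with values were 71.96 to 152 (median 122.1) in ONOFF TAC libraries. In ONOFF Sham libraries they were 52.8 to 150.2 (median 92.74). Cma1 stayed below 10 in every ONOFF TAC library. For genes so low, the size of a change depends on the value of 1 added. Of 11 cathepsins, 5 rose and 1 fell in ONOFF mice, 1 rose and 0 fell in Con mice, and 6 were higher and 0 lower in ONOFF than Con mice after TAC. Ctsk, a collagen-degrading cathepsin, rose by 0.93 in ONOFF mice (limma, adjusted p = 9.76e-07), Ctsz by 0.58 (limma, adjusted p = 2.5e-06) and Ctsd, an aspartic protease, by 0.36 (limma, adjusted p = 0.000357).

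**Figure D3:**
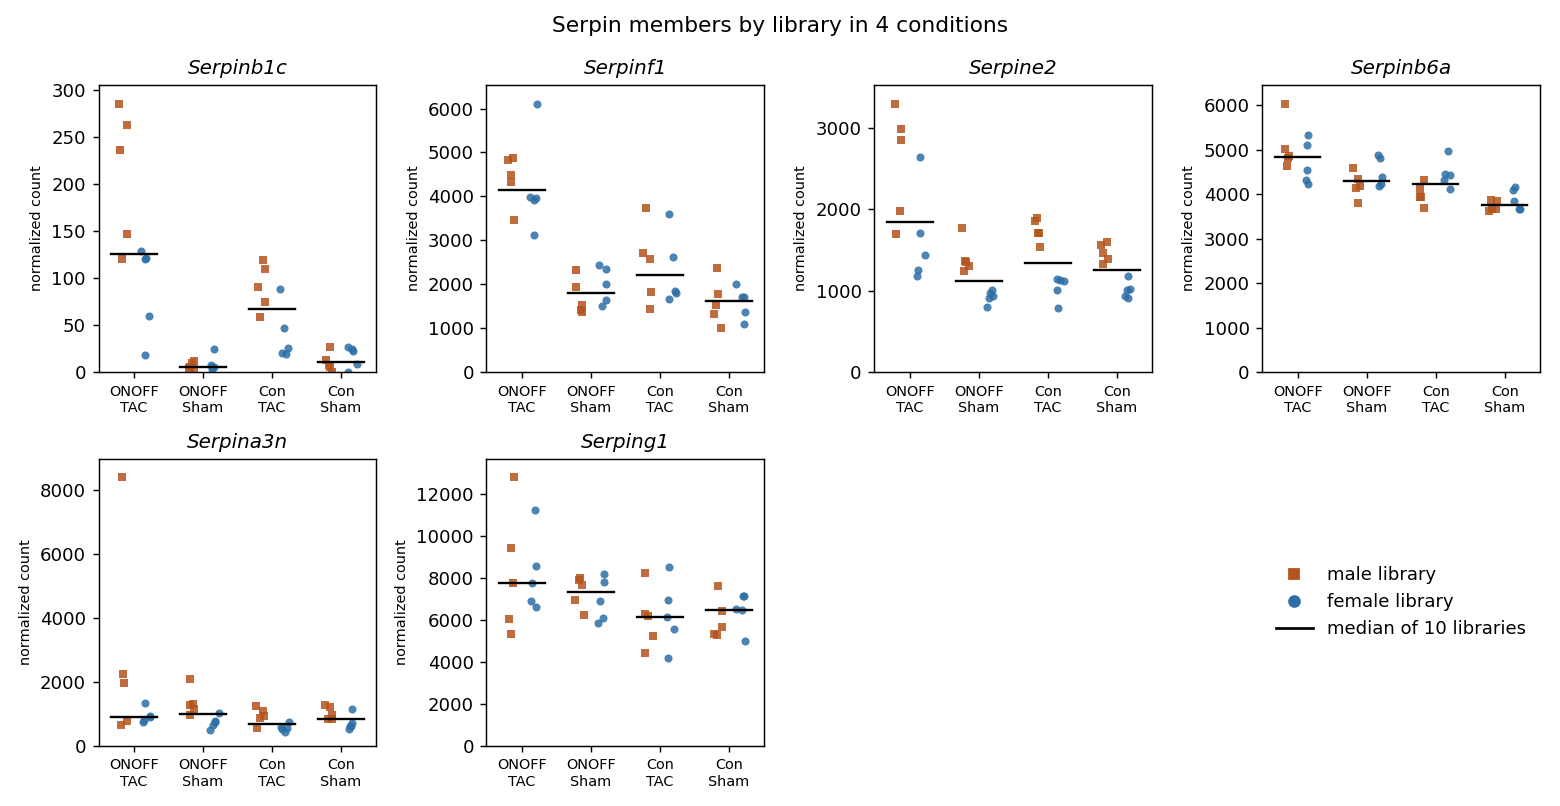
Normalised value (y axis, linear from 0) of 6 serpins called in a comparison averaging the sexes, for each library of the 4 conditions (x), with males as squares on the left, females as circles on the right and a bar at the median. Serpinf1 in ONOFF TAC libraries, at 3124 to 6109, lies wholly above ONOFF Sham, at 1365 to 2443, and Serpina3n reaches 8380 in a single ONOFF TAC male.

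Serping1 (ENSMUSG00000023224) encodes C1 inhibitor, which blocks the first proteases of complement as well as plasma kallikrein. C1 inhibitor transcript ran from 5302 to 12782 (median 7743) in ONOFF TAC libraries, 5843 to 8182 (median 7319) in ONOFF Sham, 4168 to 8523 (median 6150) in Con TAC and 4983 to 7602 (median 6462) in Con Sham. The ranges overlapped throughout. After TAC it was 1.32-fold higher in ONOFF than Con mice (log2 0.40 ± 0.13; limma, adjusted p = 0.0483), in 9 of 10 libraries, a call lost without any one of 28 of the 40 libraries (adjusted p up to 0.118, at 0.32, without ONOFF TAC M replicate 5). It held without any one of the other 12, ONOFF TAC F replicates 4 and 5 and M replicates 1 and 2, ONOFF Sham F replicate 4, Con TAC F replicates 2 and 3 and M replicate 1, and Con Sham F replicates 3 and 4 and M replicates 2 and 4. Without the 2 Con TAC F libraries with little Xist it was 0.52 (limma, adjusted p = 0.0113). Its TAC change was 0.16 in ONOFF mice (limma, adjusted p = 0.427) and -0.04 in Con mice (limma, adjusted p = 0.899). Of 12 complement proteases and partners, 1 rose and 0 fell after TAC in ONOFF mice and 0 passed in Con mice.

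Serpina3n (ENSMUSG00000021091) is an acute-phase serpin that inhibits granzyme B and leukocyte elastase. Levels ran from 663.3 to 8380 (median 904.4) in ONOFF TAC libraries, 502.9 to 2077 (median 990.2) in ONOFF Sham, 444.8 to 1242 (median 674.6) in Con TAC and 538.3 to 1285 (median 825.2) in Con Sham. ONOFF TAC M replicate 5 held the 8380, and the next library, M replicate 3, held 2232. Those libraries also held the highest summed hepatocyte markers of ONOFF TAC mice, 650.4 in M replicate 5 and 1385 in M replicate 3 (median 194.8). Of these markers, Alb, Apoa1 and Ttr were 1.905, 5.481 and 41.74 in M replicate 5, so its sum lay mostly in other markers. In M replicate 3 they were 586.5, 170.3 and 115.1. Summed macrophage markers were 13820 in M replicate 5, second among ONOFF TAC libraries, and 7749 in M replicate 3 (median 10160). The part of these cells in Serpina3n was not tested. After TAC it was 1.79-fold higher in ONOFF than Con mice (log2 0.84 ± 0.27; limma, adjusted p = 0.0432), in 8 of 10 libraries. Without M replicate 5 the difference was 0.56 (limma, adjusted p = 0.07), and without M replicates 3 and 5 it was 0.42 (limma, adjusted p = 0.222). The call was lost without any one of 14 libraries, with the highest adjusted p, 0.0989, without Con TAC M replicate 3. These were ONOFF TAC F replicates 2 to 5 and M replicates 3 to 5, and Con TAC F replicates 1, 3, 4 and 5 and M replicates 2 to 4. The TAC change was 0.40 in ONOFF mice (limma, adjusted p = 0.321) and -0.23 in Con mice (limma, adjusted p = 0.697). It turned to -0.0222 in ONOFF mice without M replicates 3 and 5.

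Of 16 acute-phase and STAT3 response genes, 6 rose and 0 fell after TAC in ONOFF mice (median 0.27), 0 passed in Con mice, and 3 were higher and 0 lower in ONOFF than Con mice after TAC. Cp, ceruloplasmin, rose by 0.63 in ONOFF mice (limma, adjusted p = 2.7e-05), Fgl2, a fibrinogen-like protein, by 1.03 (limma, adjusted p = 2.84e-05) and Timp1, an inhibitor of matrix metalloproteinases, by 1.59 (limma, adjusted p = 3.4e-05). Among 16 extracellular inhibitors that are not serpins, Timp1 again included, 3 rose and 2 fell in ONOFF mice and 1 rose and 0 fell in Con mice. Cst6, a cystatin, rose by 1.23 in ONOFF mice (limma, adjusted p = 0.000257) and by 0.96 in Con mice (limma, adjusted p = 0.0145), while Wfdc1 fell by 0.85 in ONOFF mice (limma, adjusted p = 2.77e-06). None of the lists above had a member called after sham.

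**Figure D4:**
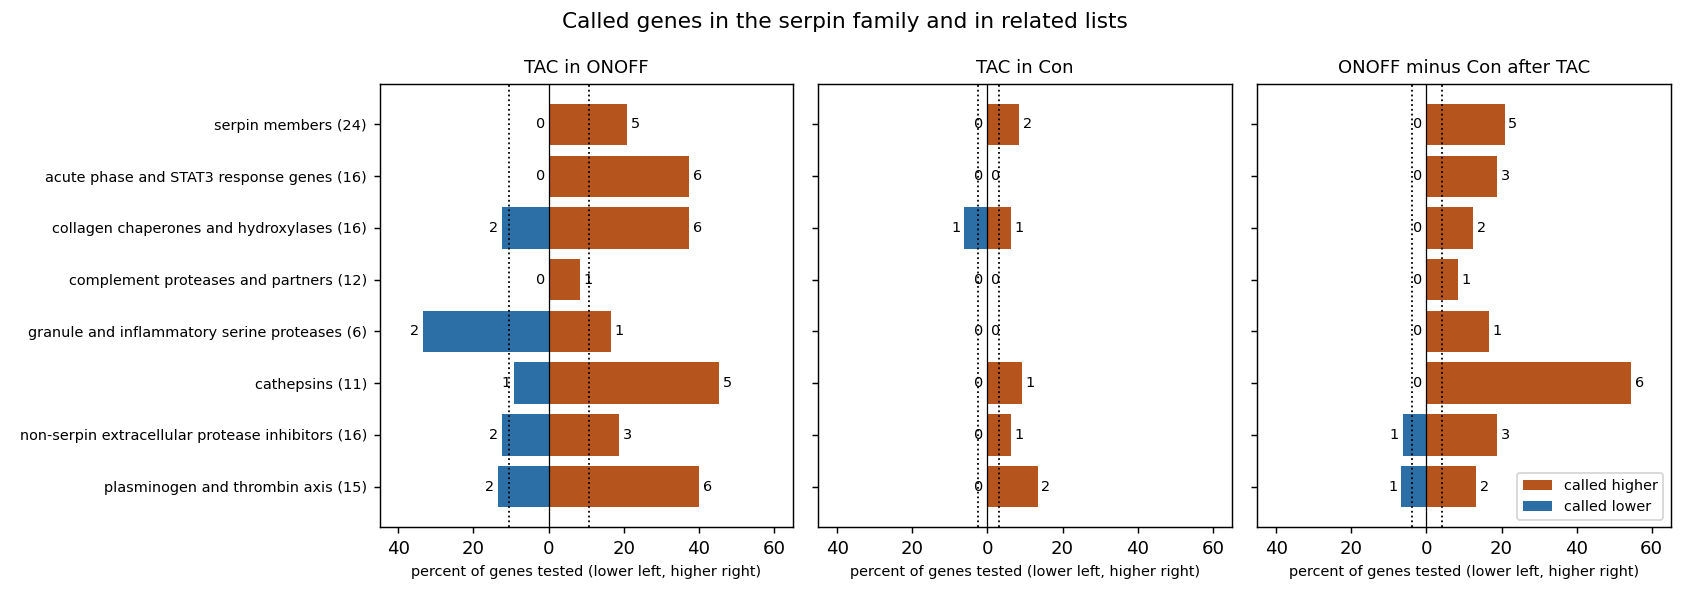
Percent of tested members called higher (right) or lower (left) in the serpin family and 7 related lists of genes (rows). Panels show TAC in ONOFF mice, TAC in Con mice and ONOFF minus Con after TAC. Dotted lines mark the shares over all genes. The serpins show no call to the left in any panel, with 5, 2 and 5 of 24 to the right.

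Serpina3f, Serpina3g, Serpina3h and Serpina3i, paralogs in the same chromosome 12 cluster, were called in no comparison of surgery or genotype, and varied between single mice. Serpina3g is known as an inhibitor of cysteine cathepsins that interferon induces in mouse leukocytes. In every condition one library held the highest value of Serpina3f, Serpina3g, Serpina3h and Serpina3i alike: ONOFF TAC F replicate 2, ONOFF Sham F replicate 4, Con TAC F replicate 2 and Con Sham F replicate 3. Serpina3f was 594.7 in ONOFF TAC F replicate 2 (next 43.9, median 20.4), 201.5 in ONOFF Sham F replicate 4 (next 47.9, median 16.8), 414.4 in Con TAC F replicate 2 (next 119.1, median 17.6) and 382.8 in Con Sham F replicate 3 (next 29.7, median 13.8). Serpina3g was 180.3 (next 23.4), 75.9 (next 23.3), 255.3 (next 85.2) and 137.6 (next 24.4) in the same libraries. Serpina3i was 131.2 (next 40.1), 33.2 (next 29.9), 150.5 (next 29.8) and 128.6 (next 47.0). All are female by label, one with little Xist (Con TAC F replicate 2) and one with many genes at 0 (Con Sham F replicate 3). This pattern was noticed after the values were seen.

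A list of 16 genes known to respond to interferon gamma, also chosen after the values were seen, was highest in those libraries. Its summed value was 38460 in ONOFF TAC F replicate 2 (next 11310, median 8304), 20120 in ONOFF Sham F replicate 4 (next 11120, median 7934), 40770 in Con TAC F replicate 2 (next 20670, median 8892) and 47800 in Con Sham F replicate 3 (next 15550, median 8498). None of the 16 was called in the 5 comparisons that average the sexes. Summed T and NK cell markers were highest in Con Sham F replicate 3 (227.4) but in other libraries of the remaining conditions: ONOFF TAC M replicate 5 (70.1, against 63.7 in F replicate 2), ONOFF Sham M replicate 2 (100.9) and Con TAC F replicate 4 (192.2). Summed macrophage markers were highest in ONOFF TAC F replicate 2 (15040) and Con Sham F replicate 3 (13510), and elsewhere in ONOFF Sham F replicate 1 (12310) and Con TAC F replicate 4 (13040). The part of these cells in the values was not tested. Between 27.3% and 28.4% of the 31-base words of Serpina3f, Serpina3g and Serpina3i transcripts occur in transcripts of other genes, with 15.3% to 16.3% in the closest single paralog, so reads could be split among these paralogs and the values of each are uncertain. Serpina3h was not compared here.

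**Figure D5:**
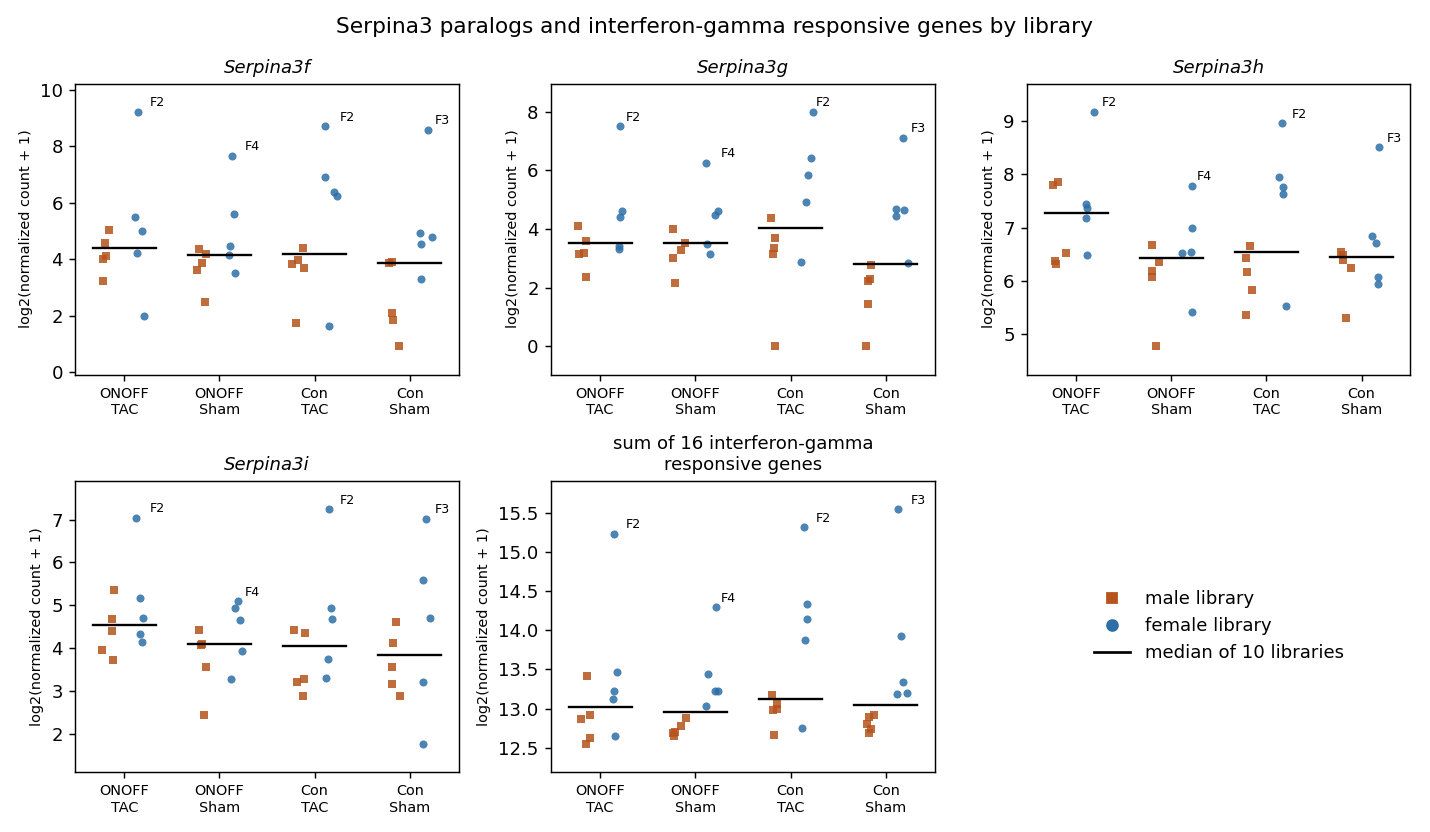
Log2(value + 1) (y axis) of Serpina3f, Serpina3g, Serpina3h and Serpina3i and of the summed 16 interferon-gamma responsive genes, per library of the 4 conditions (x), with the highest library of each condition labelled. The labelled libraries, F2 of ONOFF TAC, F4 of ONOFF Sham, F2 of Con TAC and F3 of Con Sham, recur from panel to panel.

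RefSeq promoters were found for 20 of the 24 members, with 23 start sites, and were searched on both strands over 250 bases before the start. TTCNNNGAA occurred in 4 members (Serpina3f, Serpina3g, Serpina3i and Serpinb6a) and in 7.02% of 32851 promoters of all genes. Serpina3f has 2 start sites in that table, and the same match lies within 250 bases of both. The core of the interferon-stimulated response element, searched as GAAA, any 2 bases and GAAA, occurred in Serpinb6a and Serpinb9 and in 2.98% of promoters, and in Serpinb6a it overlapped the TTCNNNGAA match. The AP-1 motif TGANTCA occurred in Serpina1a, Serpina1b, Serpina1c and Serpinb8 (6.75% of promoters). The M-CAT motif CATTCC occurred in Serpina3i and Serpinb6a (12.6%) and the short SMAD box CAGAC in 13 members (42.2%). A match describes the letters in this window, and related genes are not independent cases of it.

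The Serpina1 genes encode alpha-1-antitrypsin, made mainly in liver. Serpina1b ran from 164.5 to 501.6 (median 256.4) in ONOFF TAC, 144.3 to 442.2 (median 225.3) in ONOFF Sham, 128.6 to 356.2 (median 179.7) in Con TAC and 104.3 to 328.1 (median 252.5) in Con Sham libraries, and was 0.44 higher in ONOFF than Con mice after TAC without passing (limma, adjusted p = 0.143). In males it was 0.95 higher and passed (limma, adjusted p = 0.0292), at 246.6 to 501.6 in ONOFF TAC and 128.6 to 175.8 in Con TAC males, which did not overlap. In females it differed by -0.06 (limma, adjusted p = 0.968), and the difference between the sexes, 1.005, did not pass (limma, adjusted p = 1.00). For that comparison in males, 3 of 24 members were called higher, against 339 of 16395 genes higher and 303 lower. How many of all genes did not overlap between these males was not counted. Serpina1a and Serpina1c were listed at 0 in 12 and 17 of 40 libraries and were highest in ONOFF TAC M replicate 3, at 108.9 (next 65.1) and 147.1 (next 78.0). The summed hepatocyte markers were also highest there, at 1385, with 650.4 in M replicate 5 and a median of 194.8 in ONOFF TAC libraries, and Serpina3k, a liver serpin below the minimum, reached 128.6 in the same library. No hepatocyte marker tested passed in the 5 comparisons that average the sexes. Serpina1c shares 82.2% of its 31-base words with transcripts of other genes, Serpina1a 65.2%, Serpina1e 54.2% and Serpina1b 44.7%, with the largest share of each found in another Serpina1 gene, so single values within this group are uncertain.

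Among the other secreted members, Serpina3c, a kallikrein-binding protein in mouse, had medians of 51.2 in ONOFF TAC, 62.1 in ONOFF Sham, 56.4 in Con TAC and 35.7 in Con Sham libraries. Its genotype difference after sham was 0.94 ± 0.26 (unadjusted p = 0.000783; limma, adjusted p = 0.154), in 10 of 10 libraries, and the TAC changes were -0.33 in ONOFF and 0.69 in Con mice, neither past the threshold. Serpina3h ran from 78.6 to 576.9 in ONOFF TAC and 26.4 to 219.5 in ONOFF Sham libraries, a change of 0.92 ± 0.36 that fell short (limma, adjusted p = 0.0699), with 9 of 10 libraries on its side. Serpini1, neuroserpin, an inhibitor of tissue plasminogen activator, had medians of 426.7, 380.3, 434.8 and 398.2 in the order ONOFF TAC, ONOFF Sham, Con TAC and Con Sham. Serpind1, heparin cofactor II, which inhibits thrombin, had medians of 19.2, 15.8, 15.2 and 22.0 in that order. Neither passed in any of the 5 comparisons.

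Sex separated several serpins over all conditions, in a comparison added after values were seen. Of 24 members, 2 were higher and 3 lower in males than in females (20.8% of members, against 1.99% of all genes higher, 1.99% lower and 3.98% in either direction). Serpine2 was 1.56-fold higher in males (log2 0.64 ± 0.08; limma, adjusted p = 1.02e-06), and Serpina3n 1.68-fold (log2 0.75 ± 0.19; limma, adjusted p = 0.0186). Serpina3n averaged 2802 in males and 940.1 in females of ONOFF TAC, 1353 and 743.9 in ONOFF Sham, 938.8 and 574.2 in Con TAC, and 1016 and 731.9 in Con Sham mice. Without the 2 Con TAC F libraries with little Xist these differences were 0.65 and 0.79 (limma, adjusted p = 3.62e-06 and 0.0256).

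Serpina3g was 2.07 lower in males than females on the log2 scale, a change of -2.07 ± 0.41 (limma, adjusted p = 0.00246), and -1.48 without the 4 female libraries named above (limma, adjusted p = 0.0167). Serpina3f, at -1.87 ± 0.52 (limma, adjusted p = 0.0335), was -1.08 without them and did not pass (limma, adjusted p = 0.145), and did not pass without the 2 libraries with little Xist either (-1.62, limma, adjusted p = 0.0832) or without any one of ONOFF TAC M replicate 3, ONOFF Sham F replicate 4, Con TAC F replicate 2 and Con Sham M replicate 5 (adjusted p up to 0.0552). Serpinb9, at -0.22 ± 0.05 (limma, adjusted p = 0.017), was -0.18 without the 4 (limma, adjusted p = 0.0567). It averaged 771.6 in males and 860.2 in females of ONOFF TAC and 753.8 and 861.7 in Con Sham mice. In the interferon-gamma list, 15 of 16 genes were lower in males and 0 higher, against 1.99% of all genes in each direction. That list was chosen after values were seen and its sum was highest in the 4 female libraries. Its count was not repeated without them. In no serpin did the sexes differ in any of the 4 effects of TAC or genotype past the threshold (0% of all genes passed as well). By limma, an unadjusted p below 0.05 was reached by 2 serpins for ONOFF minus Con after TAC and by 0 in the other 3. The share of all genes at that unadjusted level was not counted.

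The 18 entries below the minimum were Serpinc1, Serpinf2, the second Serpina3h entry, Serpina12, Serpinb1b, Serpinb6c, Serpina3k, Serpina9, Serpina6, Serpina10, Serpinb2, Serpina11, Serpinb7, Serpinb5, Serpina1d, Serpina3m, Serpina3e-ps and Serpinb10. Serpinc1, antithrombin, reached 15.9 at most and Serpinf2, alpha-2-antiplasmin, 19.2. Serpina1d reached 18.4 and Serpina3k 128.6, both in ONOFF TAC M replicate 3, and Serpina3m reached 42.9 in ONOFF TAC M replicate 5.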

How the data were processed

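Per the labels' protocols, total RNA of left ventricles went into a stranded library preparation. The submitters' processing notes name FastQC 0.11.7, MultiQC 0.8, STAR 2.7.3a, Salmon, R 4.3.1, DESeq2 and GRCm39. The authors deposited a file of normalized counts, used here as a signal, with 22676 genes and 40 libraries. Its values are not whole, so depth is unknown and no counting interval is given.

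Members and lists were chosen with earlier results of these data known. Values were taken as log2(value + 1), and the 16395 genes at 10 or more in at least 5 of the libraries were tested. In R 4.3.3 with the package data.table (version 1.17.8), limma 3.58.1 was fitted to 8 group means (genotype, surgery and sex) with trend and robust variances and 32 residual degrees of freedom. Comparisons averaged the sexes equally, tests were two-sided, and p-values were adjusted by Benjamini-Hochberg over all genes of each comparison. A library is on the side of a change if it lies beyond the mean of the compared condition in its sex. Serpins called in any of the 5 comparisons averaging the sexes are described in full, and up to 3 genes per list were named by smallest p for TAC in ONOFF mice. A few genes within these rules enter the counts and are not reported here. The difference between males and females over all conditions and the interferon-gamma list were added after values were seen. The procedure was tested on simulated data.

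Gene models came from an annotation of GRCm38, another build than the authors', so coordinates are given only for the promoter sequences, from RefSeq's GRCm38.p6. The share of each member's 31-base words found in transcripts of any other gene was counted in the GRCm38 gene models. The alternatives run were equal library totals, quantile normalization, 10 in place of the pseudocount, tests without a filter or with a mean minimum of 50, weights per library, fits to the compared groups alone, a replicate block, and leaving out single libraries or those that stand apart. Figures used Python 3.11.15, pandas 2.3.3, numpy 2.4.6 and matplotlib 3.10.9.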

Additional observations from a re-analysis of the deposited data

Results flagged for a closer look

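In 24 groups of 10 libraries (6 described serpins in 4 conditions), 3 held a library separated from its neighbour by more than Dixon's 95% critical value for 10 samples, 0.466 of the range. Chance gives about 1 in 20 for normal values of a single population. The values used were not logged and the sexes were pooled, so that rate may not hold here. Serpina3n was 8380 in ONOFF TAC M replicate 5, with the next library at 2232. Serpina3n was 2077 in ONOFF Sham M replicate 4, with the next at 1313. Serpinb1c was 24.9 in ONOFF Sham F replicate 1, with the next at 11.7.

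The TAC effect on Serpine2 was 0.66 larger on the log2 scale in ONOFF than in Con mice (limma interaction, adjusted p = 0.0474). It was the 1 serpin whose TAC effect differed between the genotypes past the threshold.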

How the results depend on the processing

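Values of the deposited table limit these results: depth is unknown, low serpins move with the value added before taking logs, and the paralogs of the Serpina1 and Serpina3 clusters share sequence. Over the log2 changes of named serpins, 778 of 894 called values kept their direction and call across the settings run and 116 lost the call. Of 949 values not called, 937 stayed so, 4 passed and 8 changed sign. Calls that held under every setting run were those of Serpinb1c, Serpinf1 and Serpine2 for TAC in ONOFF mice, Serpinb1c for TAC in Con mice, Serpinf1 and Serpine2 for genotype after TAC, and Serpine2, Serpina3n and Serpina3g between males and females, although Serpina3g was not tested with a mean of at least 50.

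Serpins called for the difference of TAC effects fell to 0 with no filter, without the 3 Con Sham libraries with many zeros, and without ONOFF TAC M replicates 3 and 5. For TAC in ONOFF mice 8 were called with library weights. For TAC in Con mice 1 was called with only the groups compared, without those 3 libraries, without the 2 with little Xist, without these 5, and without the 4 with the highest Serpina3f. For genotype after TAC 3 were called with only the groups compared and 2 without ONOFF TAC M replicates 3 and 5, and between males and females 3 without the 4 libraries. The cause was not tested.

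Over all genes, library weights gave 5266 for TAC in ONOFF mice, 2355 for genotype after TAC, 47 after sham, 449 for the difference of TAC effects and 1294 between males and females. No filter gave 13 after sham and 30 for the difference of TAC effects, and quantile normalization 120. Only the groups compared gave 495 for TAC in Con mice and 12 after sham. Without the 3 libraries there were 2 after sham and 131 for the difference. Without the 2 there were 582 for TAC in Con mice, 151 for the difference and 428 between males and females. Without the 5 there were 614, 4 after sham and 441 for the difference. Without the 4 there were 3 after sham, 116 for the difference and 404 between males and females. Without ONOFF TAC M replicates 3 and 5, genotype after TAC gave 788 and the difference 5. The libraries left out by Serpina3f and the 2 ONOFF TAC males were chosen after seeing the data.

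Changes of sign were Serping1 for TAC in Con mice (0.00115 with equal totals, and -0.104 to 0.0251 leaving out single libraries), Serpina3n for TAC in ONOFF mice (-0.0222 without M replicates 3 and 5), and Serpinb6a for the difference of TAC effects (-0.0143 without them, and -0.015 to 0.0371 leaving out single libraries). None of these was called.

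Leaving out each library in turn, serpins called were 4 to 6 for TAC in ONOFF mice, 1 to 2 in Con mice, 3 to 6 for genotype after TAC, 0 after sham, 0 to 1 for the difference of TAC effects and 4 to 6 between males and females. All genes called were 3113 to 3676, 706 to 1118, 887 to 1591, 3 to 49, 9 to 252 and 466 to 830 in the same order.

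The labels do not say that replicate numbers pair mice. The median correlation of residuals was 0.004 for the same number and 0.002 for other numbers, which cannot exclude pairing of some mice. With the replicate block, serpins called were 5, 2, 4, 0, 1 and 5 in the same order, with 14 genes called after sham and Serping1 losing its call for genotype after TAC (limma, adjusted p = 0.0643).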
